A study of Mus musculus with 2 samples.

Results

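Potassium channel genes of the muscle wall of the jejunum were examined in mice that lack the maintenance DNA methyltransferase *Dnmt1* in smooth muscle cells (SMCs). The members were every gene symbol of the deposited table that starts with Kcn, with *Abcc8* and *Abcc9*, the regulatory subunits of ATP-sensitive channels, added and *Kcnq1ot1* left out. This gave 91 of 18159 symbols, of which 2, *Kcnd3os* and *Kcnmb4os1*, name antisense RNAs and were counted apart. Both libraries came from jejunum smooth muscle of mice aged 15 days on a C57BL/6 background, and the labels give both the same strain, a Tg(Myh11-cre,-EGFP)2Mik transgenic with floxed *Dnmt1* (Dnmt1lox/lox), in which the *Myh11* promoter drives *Cre* and *eGFP*. Only the genotype label and the title tell the libraries apart. In the study's description *Dnmt1*-WT mice carry the *Cre* and *eGFP* transgene (smMHC Cre-eGFP/+) and *Dnmt1*-KO mice carry it together with the deleted *Dnmt1* (smDnmt1-/-;Cre-eGFP/+), so both groups express *Cre*. The *Dnmt1*-WT and *Dnmt1*-KO genotypes were represented by 1 mRNA library each, with mice of both sexes behind each according to the methods. *Cre* acts only in cells that express *Myh11*, so the deletion is aimed at smooth muscle cells, while the tissue also holds neurons, glia, interstitial cells and leukocytes. *Dnmt1* was not measured here by cell type. With 1 library per genotype no test, error or p-value between genotypes can be given, and every difference below has no replicate check.

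Potassium channels let potassium leave the cell, which draws the membrane potential of a smooth muscle cell away from the level at which L-type calcium channels open, and so limits contraction. BK channels open with calcium and depolarisation, KATP channels close when cellular ATP is high, voltage-gated Kv channels open on depolarisation and shape electrical slow waves, and K2P channels carry a background leak. Many of these channels are built from a pore-forming subunit and an auxiliary one encoded by another gene, and several are known from neurons, glia, pacemaker cells or epithelium of the gut wall as well as from its muscle.

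The values are FPKM, sequenced fragments scaled to transcript length and to the size of the library, which can be compared between genes. A member was carried into the counts when its mean over both libraries was 1 FPKM or more, which 58 of the 91 reached. Of the 58, 12 were at most halved in *Dnmt1*-KO, with 0.5 times the *Dnmt1*-WT level or less, or 20.7%, while 3.38% of the 13396 genes of the whole table under the same filter were. A ratio of 2 or more was found for 5, or 8.62%, against 7.99% of all genes. The ratio was under 1 for 41 of the 58, or 70.7%, against 51.5% of all genes, and above 1 for 17, against 48.4% of all genes. On the log2 scale, after 0.1 was added to every FPKM, the members had a median ratio of -0.29 and all genes of the filter one of -0.02. This lower median holds relative to all transcripts of the tissue but turned to 0.21 when the *Dnmt1*-KO values were multiplied by 1.43, the factor that sets the median of 10 smooth muscle contractile genes to 0 and that moves all genes to 0.49. Those 10 genes were themselves unlike, with ratios from 0.427 for *Smtn* to 0.893 for *Cnn1*. The factor rests on their median and need not give the amount of muscle. On that smooth muscle scale 3 members were at most halved, against 1.02% of all genes, 7 were at least doubled, against 18.2% of all genes, and 24 of 58 had a ratio under 1, against 13.7% of all genes. Dividing each library by its FPKM sum gave 16 halved members, against 4.4% of all genes, and 3 doubled ones, against 7.04%. In whole tissue, fewer cells of a type and less RNA per cell cannot be told apart.

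**Figure D1:**
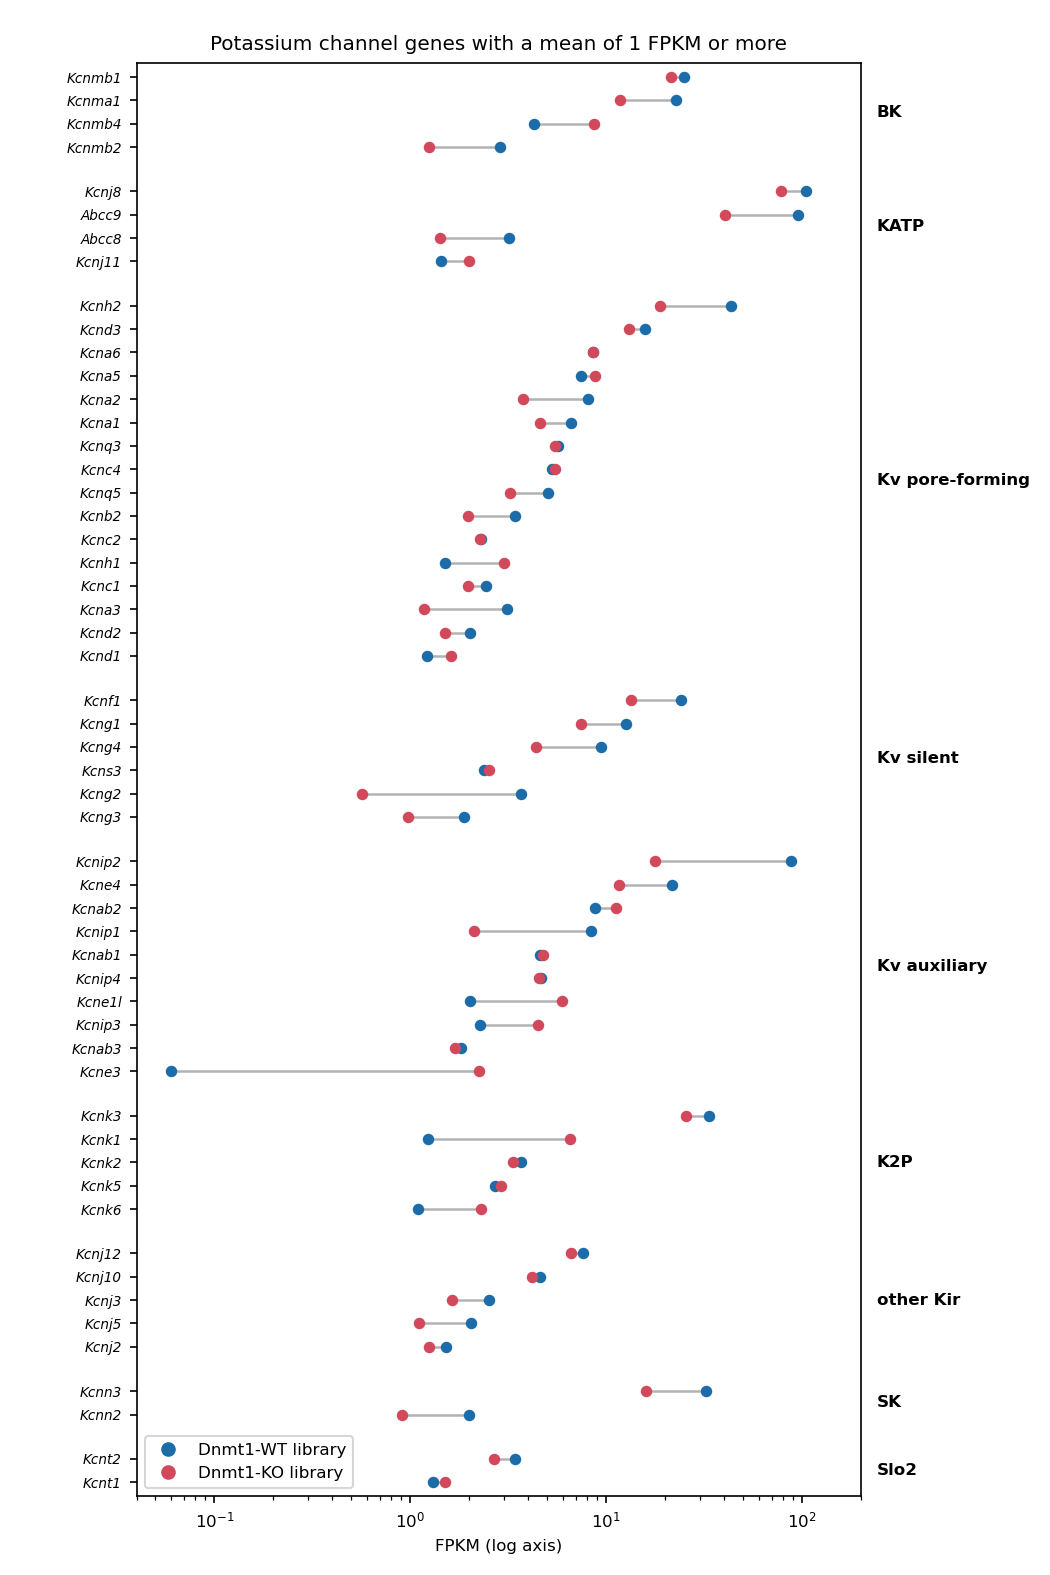
FPKM on a log axis of 54 of the 58 potassium channel genes with a mean of 1 FPKM or more, grouped by channel class, with 1 point for the *Dnmt1*-WT library (blue) and 1 for the *Dnmt1*-KO library (red) joined by a line, and no error bar because each genotype has 1 library. All 12 plotted genes with a mean of 10 FPKM or more had the red point to the left, or 8 of the 12 on the smooth muscle scale, where 11.9% of all genes at this level were lower, and the longest lines were those of *Kcne3*, from 0.06 to 2.24 FPKM, *Kcng2*, from 3.66 to 0.57 FPKM, and *Kcnk1*, from 1.23 to 6.53 FPKM.

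All 14 members with a mean of 10 FPKM or more had their lower value in *Dnmt1*-KO, at a median of -0.89 on the log2 scale, while 52.8% of the 6505 genes at this level had a ratio under 1 and their median was -0.03. This count of lower members was 14 under every scaling to all transcripts and after centring on transcript length, where 49.7% to 62.4% of the 6505 genes were under 1, and 10 on the smooth muscle scale, where 11.9% were. The 44 members with a mean of 1 to 10 FPKM were divided, with 27 under 1, 8 at most halved, 5 at least doubled and a median of -0.07. Among the 6891 genes of that level 50.2% were under 1, 4.18% at most halved and 11.6% at least doubled. Over all genes of the table the FPKM values added up to 429698 in *Dnmt1*-WT and 460845 in *Dnmt1*-KO. The summed FPKM of all 91 members was 730 in *Dnmt1*-WT and 463 in *Dnmt1*-KO, a sum that was 36.7% lower, or 9.53% lower on the smooth muscle scale. The 3 highest members of each library made up 39.4% of this sum in *Dnmt1*-WT and 31.2% in *Dnmt1*-KO. They were not the same genes, with *Kcnip2* at rank 3 in *Dnmt1*-WT and *Kcnk3* in *Dnmt1*-KO.

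The tissue itself was checked through marker genes. The 10 smooth muscle contractile genes were all lower in *Dnmt1*-KO, with sums of 25114 and 17025 FPKM and a median log2 ratio of -0.51. *Dnmt1* was at 11.6 FPKM in *Dnmt1*-WT and 7.58 FPKM in *Dnmt1*-KO. The 3 markers of PDGFRA cells were lower, with sums of 238 and 118 FPKM, and so were the 3 of interstitial cells of Cajal (ICC), 124 and 104 FPKM. Of 10 enteric neuron markers 7 were higher, with sums of 611 and 744 FPKM, and of 4 glial markers 3 were higher, 59.2 and 88.9 FPKM. The 4 endothelial markers summed to 36.4 and 83.8 FPKM, the 3 leukocyte markers to 16.6 and 46.2 FPKM and the 4 listed macrophage markers to 79.9 and 284 FPKM, all higher in *Dnmt1*-KO. The 3 T cell markers were higher too, at 0.29 and 3.21 FPKM in sum, with *Cd3e* and *Cd3d* listed at 0 in *Dnmt1*-WT. Of 7 enterocyte markers 6 were higher, with sums of 284 and 577 FPKM. The 3 mesothelial markers summed to 212 FPKM in both libraries, and 2 of them were higher. Of the 3 listed skeletal muscle markers *Acta1*, at 5.17 and 12.2 FPKM, and *Mylpf*, at 0.81 and 1.78 FPKM, were higher and *Ckm*, at 96.7 and 41.4 FPKM, was lower, with sums of 103 and 55.4 FPKM. How far these shifts set the values of single channel genes was not tested.

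**Figure D2:**
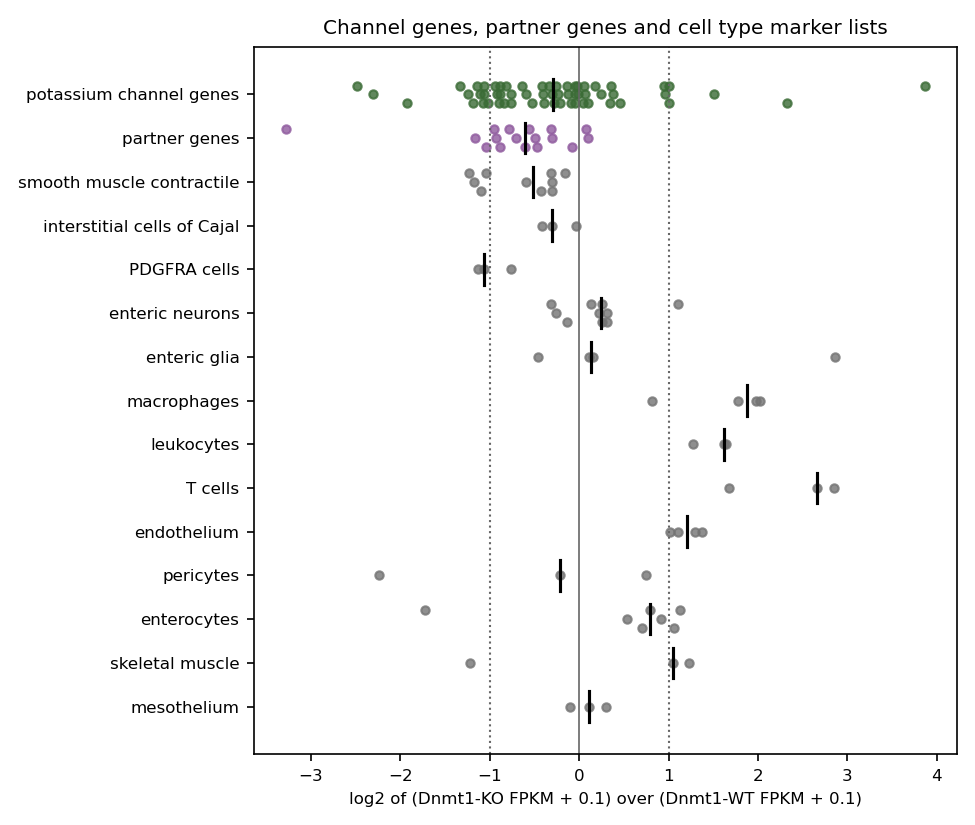
The log2 ratio of *Dnmt1*-KO to *Dnmt1*-WT, with 0.1 added to each FPKM, for potassium channel genes, partner genes and marker genes, with 1 point per gene, a bar at the median of each list and dotted lines at a 2-fold ratio. The 10 smooth muscle contractile genes all lay below 0 with a median of -0.51, between the medians of the channel genes, -0.29, and of their partner genes, -0.61, while the 4 endothelial genes all lay above 1, and on the smooth muscle scale the median of the channel genes was 0.21 and that of all genes 0.49.

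Sequence before the start site is printed for 5 members, the KATP pair of smooth muscle, the auxiliary subunits *Kcnip2*, which was far lower, and *Kcnmb1*, which differed little, and *Kcnk1*, which was higher. Each stretch holds 200 bases that end 50 bases before the RefSeq start on GRCm38.p6, written 5′ to 3′ on the strand of the gene, with the dinucleotide CG, the site of DNA methylation, in capitals.
*Kcnj8*, chr6:142571665-142571864, minus strand: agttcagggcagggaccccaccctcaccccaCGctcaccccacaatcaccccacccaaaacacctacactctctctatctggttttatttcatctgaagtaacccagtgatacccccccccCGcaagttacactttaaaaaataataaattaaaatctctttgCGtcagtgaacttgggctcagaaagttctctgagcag
*Abcc9*, chr6:142702325-142702524, minus strand: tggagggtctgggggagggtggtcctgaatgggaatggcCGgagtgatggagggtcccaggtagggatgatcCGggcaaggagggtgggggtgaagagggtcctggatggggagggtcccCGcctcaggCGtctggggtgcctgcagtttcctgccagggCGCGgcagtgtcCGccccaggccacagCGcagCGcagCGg
*Kcnip2*, chr19:45816114-45816313, minus strand: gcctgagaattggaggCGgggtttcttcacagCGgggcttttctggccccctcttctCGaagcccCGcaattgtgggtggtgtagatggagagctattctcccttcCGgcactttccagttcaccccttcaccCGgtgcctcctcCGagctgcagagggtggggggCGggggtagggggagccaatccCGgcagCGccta
*Kcnmb1*, chr11:33962763-33962962, plus strand: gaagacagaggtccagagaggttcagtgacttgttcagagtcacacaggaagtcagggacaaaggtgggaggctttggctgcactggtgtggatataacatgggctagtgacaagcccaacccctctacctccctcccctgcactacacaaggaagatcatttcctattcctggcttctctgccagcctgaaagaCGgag
*Kcnk1*, chr8:125994852-125995051, plus strand: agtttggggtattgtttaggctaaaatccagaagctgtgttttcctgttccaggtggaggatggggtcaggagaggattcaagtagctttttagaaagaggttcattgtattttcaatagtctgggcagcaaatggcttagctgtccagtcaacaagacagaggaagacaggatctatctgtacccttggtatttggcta
The stretches hold 3, 10, 10, 1 and 0 CG dinucleotides in this order. These 5 were chosen with their expression known, so the order of their numbers beside their ratios carries no weight. A link between CG number and ratio was not tested. Over the 65 members with a RefSeq window, 87 windows in all because some genes have several starts, the median number was 6, against 4 over all 32851 windows. *Kcnmb4*, which was higher, has 36 CG dinucleotides and *Kcna3*, which was at most halved, 25. No window of a member held a CArG box, the binding motif of serum response factor (CC, then 6 bases that are A or T, then GG), searched on both strands, and 1.16% of all windows did. Methylation of these stretches was not analysed here.

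KATP channels held the most abundant potassium channel transcripts of the tissue. *Kcnj8*, which encodes the pore subunit Kir6.1 of the smooth muscle channel, was at 105 FPKM in *Dnmt1*-WT and 78.3 FPKM in *Dnmt1*-KO. *Abcc9*, which encodes its sulfonylurea receptor SUR2, was at 95.0 and 40.3 FPKM. These were ranks 1 and 2 of all members in both libraries, and both were lower in *Dnmt1*-KO. The ratio of *Kcnj8* was 0.748 and that of *Abcc9* 0.424, so that *Kcnj8* exceeded *Abcc9* by 1.10 times in *Dnmt1*-WT and 1.95 times in *Dnmt1*-KO. After centring on transcript length the ratios came closer, to 0.71 for *Kcnj8* and 0.496 for *Abcc9*. On the smooth muscle scale *Kcnj8* was no longer lower, at a ratio of 1.07, while *Abcc9* stayed lower at 0.605. Over the 4 KATP genes the median log2 ratio was -0.76, and -0.26 on the smooth muscle scale. The pair that forms the pancreatic and neuronal channel was scarce. *Abcc8*, encoding SUR1, was at 3.18 and 1.42 FPKM, a ratio of 0.447 (0.638 on the smooth muscle scale), and *Kcnj11*, encoding Kir6.2, at 1.43 and 2.00 FPKM, a ratio of 1.4. Here too the receptor was lower relative to its pore subunit, with a *Kcnj11* level of 0.45 times *Abcc8* in *Dnmt1*-WT and 1.41 times in *Dnmt1*-KO. Pericytes are also known to express *Kcnj8* and *Abcc9*. *Rgs5*, a pericyte marker, was at 435 and 92.0 FPKM, while of the other pericyte markers *Cspg4* was at 19.7 and 17.1 FPKM and *Pdgfrb* was higher, at 8.54 and 14.5 FPKM, and their part in the KATP values was not tested.

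Both KATP pairs are neighbours in the genome. *Kcnj8* (chr6:142564837-142571614) and *Abcc9* (chr6:142587862-142702315) lie 16.2 kb apart on the minus strand of chromosome 6 of GRCm38, and *Kcnj11* and *Abcc8* lie 3.76 kb apart on the minus strand of chromosome 7. Within each pair the ratios were unlike, 0.748 and 0.424 in the first and 1.4 and 0.447 in the second. Among other close neighbours, *Kcna3* and *Kcna2*, 63.1 kb apart on chromosome 3, both had ratios under 0.5, while *Kcna5*, *Kcna1* and *Kcna6* on chromosome 6 had 1.19, 0.689 and 0.993.

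The BK channel of smooth muscle is built from *Kcnma1*, the calcium-activated pore, and *Kcnmb1*, the beta subunit that raises its calcium sensitivity. *Kcnma1* was at 22.8 FPKM in *Dnmt1*-WT and 11.8 FPKM in *Dnmt1*-KO. *Kcnmb1* was at 25.1 and 21.3 FPKM. The pore was therefore nearly halved, at a ratio of 0.518, and the beta subunit was 15.1% lower, a ratio of 0.849. On the smooth muscle scale the ratio of *Kcnma1* was 0.741 and that of *Kcnmb1* turned to 1.21. *Kcnmb4*, a beta subunit best known from neurons, was the 1 BK member that was higher, at 4.30 and 8.68 FPKM, a ratio of 2.02. This ratio was under 2 after scaling to the FPKM sum (1.88), with a pseudocount of 1 (1.83) and after centring on transcript length (1.79). Over the 4 BK genes the median log2 ratio was -0.59, and -0.08 on the smooth muscle scale. The level of *Kcnmb4* relative to *Kcnma1* went from 0.188 to 0.734. *Kcnma1* has the longer transcript, 12094 against 1626 bases, and its ratio after centring on transcript length was 0.607. *Kcnmb2*, which inactivates the channel, was low in both, at 2.88 and 1.25 FPKM, a ratio of 0.434 (0.620 on the smooth muscle scale). *Kcnma1* had 8 transcript variants in each library. *Kcnmb1* (chr11:33963013-33973641) lies on the plus strand within the span of *Kcnip1* on the minus strand, without shared exons. Of the BK gamma subunits, *Lrrc55* was at 2.06 and 1.37 FPKM, and *Lrrc26*, *Lrrc38* and *Lrrc52* were at 0.27 FPKM or less in both libraries.

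Among the 14 abundant members the lowest ratio was that of an auxiliary subunit of Kv channels. *Kcnip2* encodes KChIP2, a calcium-binding protein that brings Kv4 channels to the membrane and is known for the transient outward current of the heart. It was at 88.2 FPKM in *Dnmt1*-WT, rank 3 of all members, while *Dnmt1*-KO had 17.7 FPKM, rank 6. The ratio was 0.200, and it ranged from 0.187 to 0.286 over all scalings, pseudocounts and length centring. *Kcnip1*, of the same family, was at 8.35 and 2.11 FPKM, a ratio of 0.253. *Kcnip4* was at 4.67 and 4.52 FPKM, and *Kcnip3*, which is also the transcriptional repressor DREAM, at 2.27 and 4.5 FPKM, a ratio of 1.98. The 4 KChIP genes were thus unlike, and *Kcnip2* and *Kcnip1* stayed at or under a ratio of 0.5 on every scale tried.

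The pores that KChIP proteins serve differed much less. *Kcnd3*, encoding Kv4.3, was at 15.9 and 13.0 FPKM, a ratio of 0.822 that turned to 1.17 on the smooth muscle scale. *Kcnd2* was at 2.01 and 1.51 FPKM and *Kcnd1* at 1.22 and 1.62 FPKM. The other known partners of Kv4 are the dipeptidyl-peptidase-like proteins. *Dpp10* was at 21.6 FPKM in *Dnmt1*-WT and 2.14 FPKM in *Dnmt1*-KO, a ratio of 0.0991, and *Dpp6* at 12.5 and 13.2 FPKM. Within a library, *Kcnip2* was 5.56 times *Kcnd3* in *Dnmt1*-WT and 1.35 times in *Dnmt1*-KO, and *Dpp10* was 1.36 and 0.164 times *Kcnd3*. The ratio of the pore gene was thus nearer 1 than those of *Kcnip2* and *Dpp10*.

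Among the other pore-forming Kv genes, 20 of 29 reached the filter with the *Kcnd* genes included, 15 had a ratio under 1 (51.5% of all genes) and 3 were at most halved (3.38%). Their median log2 ratio of -0.29 turned to 0.21 on the smooth muscle scale and came to -0.07, with 11 of 20 under 1 against 51.6% of all genes, after centring on transcript length. *Kcnh2*, which encodes the ERG channel that contributes to the resting potential of gut muscle, was the most abundant of them, at 43.3 FPKM in *Dnmt1*-WT and 18.9 FPKM in *Dnmt1*-KO, a ratio of 0.436 that was 0.623 on the smooth muscle scale. *Amigo1*, an adhesion protein that assembles with Kv2 channels, was at 17.2 and 8.88 FPKM, a ratio of 0.517. Of the Kv2 and Kv7 genes, *Kcnb2* was at 3.41 and 1.97 FPKM, *Kcnq5* at 5.06 and 3.22 FPKM and *Kcnq3*, known from the M-current of neurons, at 5.68 and 5.47 FPKM. The ratio of *Kcnb2* was 0.578 and that of *Kcnq5* 0.636, while *Kcnq3* stood at 0.963.

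The *Kcna* genes, which encode Kv1 channels, were divided. *Kcna2* was at 8.07 FPKM in *Dnmt1*-WT and 3.78 FPKM in *Dnmt1*-KO and *Kcna3*, the main Kv1 channel of T cells, at 3.12 and 1.18 FPKM, both past a halving. Neither was on the smooth muscle scale, at 0.669 and 0.54, or with a pseudocount of 1, at 0.527 and 0.529, and *Kcna2* came to 0.549 after centring on transcript length. *Kcna1* was at 6.65 and 4.58 FPKM, *Kcna6* at 8.59 and 8.53 FPKM, and *Kcna5*, an SMC channel, at 7.41 and 8.79 FPKM. The lower *Kcna3* stood beside the higher T cell and leukocyte markers given above, and their part in it was not tested. The *Kcnc* genes, which encode the fast Kv3 channels of neurons, had ratios from 0.803 for *Kcnc1* to 1.03 for *Kcnc4*, with *Kcnc2* at 0.983. *Kcnh1*, the EAG channel, was at 1.51 and 3.0 FPKM, a ratio of 1.99.

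Electrically silent Kv subunits form no channel of their own and modify Kv2 channels. Of 9 listed, 6 reached the filter and 5 of them were lower (51.5% of all genes), with a median log2 ratio of -0.86 in *Dnmt1*-KO and of -0.37 on the smooth muscle scale. *Kcnf1* was at 24.1 and 13.4 FPKM, *Kcng1* at 12.7 and 7.45 FPKM and *Kcng4* at 9.39 and 4.40 FPKM, a ratio of 0.469 (0.669 on the smooth muscle scale). *Kcng2* had the lowest plain ratio of all members of the filter, 0.156, from 3.66 to 0.57 FPKM. With a pseudocount of 1 the ratio of *Kcng2* was 0.337, above those of *Kcnip2* (0.209) and *Kcnip1* (0.333). *Kcng3* was at 1.87 and 0.97 FPKM. *Kcns3* was level, at 2.38 and 2.51 FPKM. The 5 lower silent subunits stood beside lower values of *Kcnb2* and *Amigo1*, genes of the channel complex they join, and a link between them was not tested.

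The KCNE and Kv beta subunits differed among themselves. *Kcne4*, which associates with Kv7 channels in smooth muscle, was at 21.8 FPKM in *Dnmt1*-WT and 11.7 FPKM in *Dnmt1*-KO, a ratio of 0.534. *Kcne3*, whose product holds the channel of *Kcnq1* open in intestinal epithelium, was at 0.06 and 2.24 FPKM. This ratio of 37.3 rests on a *Dnmt1*-WT value close to 0.03 FPKM, the lowest listed above 0, and came to 3.06 with a pseudocount of 1. *Kcnq1* itself was below the filter, at 0.40 and 0.93 FPKM. The higher *Kcne3* stood beside higher values for 6 of the 7 enterocyte markers, with *Epcam* at 7.30 and 13.9 FPKM, *Vil1* at 6.78 and 11.8 FPKM and *Sis* as the exception at 1.93 and 0.51 FPKM, and their part in it was not tested. *Kcne1l*, the X-linked member also known as *Kcne5*, was at 2.02 and 5.94 FPKM, a ratio of 2.94. The Kv beta genes were at 8.73 and 11.2 FPKM for *Kcnab2*, 4.62 and 4.77 FPKM for *Kcnab1* and 1.81 and 1.69 FPKM for *Kcnab3*. The 10 auxiliary genes of the filter were evenly divided, 5 under 1 (51.5% of all genes) and 5 above (48.4%), with a median log2 ratio of 0.00, and 3 were under 1 on the smooth muscle scale (13.7%). Over all 51 Kv genes of the 3 groups, 36 reached the filter, 25 were lower (51.5% of all genes) and 11 higher (48.4%), with 7 at most halved (3.38%) and 2 at least doubled (7.99%), and the median of -0.29 turned to 0.21 on the smooth muscle scale.

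**Figure D3:**
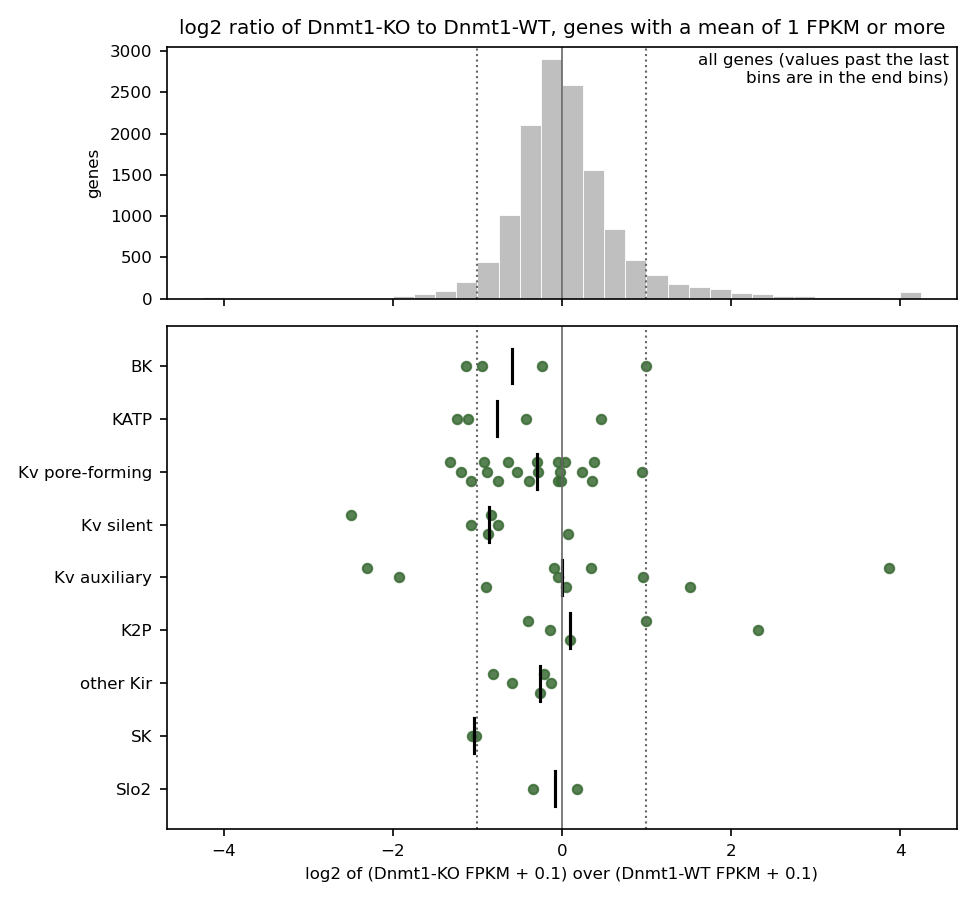
Upper panel, number of genes with a mean of 1 FPKM or more by log2 ratio of *Dnmt1*-KO to *Dnmt1*-WT with 0.1 added to each FPKM, and lower panel, the same ratio for each potassium channel gene by class, with a bar at the class median and dotted lines at a 2-fold ratio. The SK genes and the silent Kv subunits had the lowest medians, -1.04 and -0.86, the K2P genes the highest, 0.10, and on the smooth muscle scale the medians of the pore-forming Kv and other Kir genes, -0.29 and -0.26, turned to 0.21 and 0.22 and that of the Slo2 genes, -0.08, to 0.41.

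Of 12 listed K2P channel genes 5 reached the filter, too few to set against the shares of all genes, 3 with a ratio above 1 (48.4% of all genes) and 2 of these at least doubled (7.99%). Their median log2 ratio of 0.10 was 0.00 after scaling to the FPKM sum and 0.60 on the smooth muscle scale. *Kcnk3*, encoding the acid-sensitive TASK-1, made up most of the class, at 33.7 FPKM in *Dnmt1*-WT and 25.5 FPKM in *Dnmt1*-KO, a ratio of 0.757 that turned to 1.08 on the smooth muscle scale. It had rank 5 among all members in *Dnmt1*-WT and rank 3 in *Dnmt1*-KO. *Kcnk2*, encoding the stretch-activated TREK-1 of gut muscle, was at 3.69 and 3.35 FPKM, and *Kcnk5*, encoding the alkaline-activated TASK-2 of epithelia, at 2.72 and 2.92 FPKM. *Kcnk1*, encoding TWIK-1, was at 1.23 FPKM in *Dnmt1*-WT and 6.53 FPKM in *Dnmt1*-KO. This ratio of 5.31 was the second highest of all members of the filter and stayed above 2 on every scale, between 3.38 and 7.58. *Kcnk1* had 1 transcript variant in *Dnmt1*-WT and 2 in *Dnmt1*-KO. *Kcnk6*, encoding TWIK-2, was at 1.10 and 2.30 FPKM, a ratio of 2.09 that was 1.95 after scaling to the FPKM sum and 1.57 with a pseudocount of 1. The K2P sum was 44.0 and 42.7 FPKM, or 2.91% lower, while the sums of the KATP and BK genes were 40.3% and 21.8% lower. On the smooth muscle scale the KATP sum was 14.7% lower, and the BK and K2P sums turned to 11.7% and 38.7% higher. That scale raises the sum of all genes as well, which before it was 429698 FPKM in *Dnmt1*-WT and 460845 FPKM in *Dnmt1*-KO.

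Small-conductance SK channels open with calcium alone. *Kcnn3*, encoding SK3, is a defining channel of the PDGFRA cells that relay purinergic inhibition to gut muscle, and was at 32.5 FPKM in *Dnmt1*-WT and 15.9 FPKM in *Dnmt1*-KO. Its ratio of 0.491 stood beside ratios of 0.591 for *Pdgfra*, 0.471 for the purinergic receptor gene *P2ry1* and 0.457 for *Gja1*, and the part of PDGFRA cells in it was not tested. It was no longer past a halving with upper quartile scaling (0.501), a pseudocount of 1 (0.506), centring on transcript length (0.575) or the smooth muscle scale (0.701). *Kcnn2* was at 2.00 and 0.91 FPKM, a ratio of 0.455 (0.650 on the smooth muscle scale). *Kcnn4*, the intermediate-conductance channel of leukocytes and epithelium, was below the filter, at 0.48 and 0.97 FPKM. Of the sodium-activated channels, *Kcnt2* was at 3.44 and 2.69 FPKM and *Kcnt1* at 1.31 and 1.5 FPKM.

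The other inward rectifiers were low throughout. The 5 of 11 that reached the filter, too few to set against the shares of all genes, had ratios from 0.544 to 0.909. All 5 were thus under 1 (51.5% of all genes) and none was past a halving (3.38%). Their median log2 ratio of -0.26 turned to 0.22 on the smooth muscle scale, where 2 were under 1 (13.7%). *Kcnj12* was at 7.64 and 6.60 FPKM and *Kcnj2*, the classical inward rectifier of small arteries, at 1.52 and 1.25 FPKM. *Kcnj10*, the glial channel Kir4.1, was at 4.61 and 4.19 FPKM, beside glial markers of which 3 of 4 were higher, *Sox10* at 25.2 and 27.9 FPKM and *Gfap* at 4.78 and 35.4 FPKM among them, and their part in it was not tested. *Kcnj3* and *Kcnj5*, which together form a G protein-gated channel, were at 2.51 and 1.63 FPKM and at 2.04 and 1.11 FPKM.

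The 33 members below the filter had means of at most 0.85 FPKM, and 31 of them are channel genes. Of these 33, 2 were listed at 0 in both libraries, 2 more in the *Dnmt1*-WT library alone and 3 more in the *Dnmt1*-KO library alone, with no value above 0.4 FPKM in the other library. At such levels ratios carry little weight, and they were left out of the counts.

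Genes known to work beside these channels were counted in the same way. Unlike the members, they were picked 1 by 1 with earlier results of these data known. Their counts are therefore no test against the shares of all genes. Of 21 partner genes 17 reached the filter, 15 had a ratio under 1 (51.5% of all genes), 3 were at most halved (3.38%) and 0 at least doubled (7.99%), with a median log2 ratio of -0.61 that came to -0.10 on the smooth muscle scale, where 10 of 17 were under 1, against 13.7% of all genes. *Cacna1c*, the pore of the L-type calcium channel that these potassium channels oppose, was at 23.0 FPKM in *Dnmt1*-WT and 12.0 FPKM in *Dnmt1*-KO. Its ratio was 0.521. *Cacnb2* was at 26.7 and 12.9 FPKM and *Cacna2d1* at 29.8 and 17.4 FPKM. The ryanodine receptor genes, whose calcium sparks open BK channels, were at 7.50 and 4.01 FPKM for *Ryr2* and 4.49 and 1.96 FPKM for *Ryr3*, with *Ryr1* at 0.16 FPKM or less. *Itpr1* was at 25.6 and 15.6 FPKM. *Atp1b1*, the beta subunit of the sodium pump that maintains the potassium gradient, had a ratio of 1.07. *Ano1*, the pacemaker chloride channel of ICC, was at 45.0 and 36.4 FPKM, and *Cav1*, which holds KATP channels in caveolae, at 275 and 198 FPKM.

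The number of transcript variants found per gene is given for each library in the same table. Of the 58 members, 13 had fewer variants in *Dnmt1*-KO, or 22.4%, against 14.5% of all genes of the filter, and 9 had more, or 15.5%, against 13.2%. *Abcc9* had 5 variants in *Dnmt1*-WT and 3 in *Dnmt1*-KO, *Kcnip4* 4 and 2, *Kcnj11* 2 and 1, and *Abcc8* 2 and 1. *Kcne3* had 1 and 3. The variants are not named in the table, and a lower level or depth can itself leave fewer variants found. The study's supplement gives fewer mapped mRNA reads for *Dnmt1*-KO than for *Dnmt1*-WT.

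Transcript length moved with the ratio over all genes. With all genes cut into 10 equal groups by their longest annotated transcript, from the group of shortest to that of longest transcripts, the median log2 ratio went from 0.28 to -0.24. Channel genes are long, with a median longest transcript of 4092 bases against 3402 for all genes of the filter, and 12 of the 58 lay in the group of longest transcripts. After the median of each group was subtracted, a step chosen after the data were seen, the median of the members was -0.18, 10 were at most halved (3.31% of all genes) and 5 at least doubled (7.49%). *Kcnip2*, with 3114 bases, had a ratio of 0.196 and *Abcc9*, with 7499 bases, 0.496 after this step, while *Kcnma1*, with 12094 bases, came to 0.607.

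**Figure D4:**
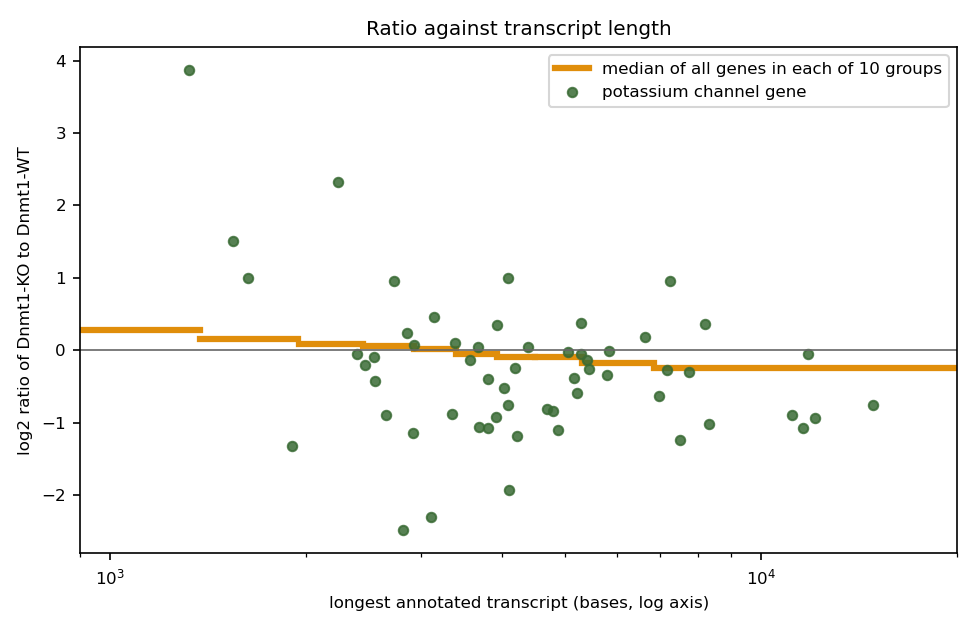
The log2 ratio of *Dnmt1*-KO to *Dnmt1*-WT of each of the 58 potassium channel genes against its longest annotated transcript in bases on a log axis, with the median of all genes in each of 10 groups by length as an orange line. The line runs from 0.28 to -0.24, and *Kcng2*, *Kcnip2* and *Kcnip1*, the lowest points, and *Kcne3* and *Kcnk1*, the highest, lie far from it.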

How the data were processed

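RNA of the jejunal tunica muscularis was sequenced from TruSeq RNA libraries, 1 for each genotype. Per the labels, the authors used TopHat 1.4.1, Cufflinks 2.0.2 and genome build mm10, and the deposited values are FPKM per gene symbol. The roles and settings of these tools, and whether strand was used, are not given in the sources used here. The deposited table also holds how many transcript variants were found for each gene and a ratio of genotypes computed by the authors, which was not used. Reads behind single genes were not analysed here, so no interval is given. Values above 0 began at 0.03 FPKM in either library.

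Samples were grouped by their genotype label, since the free-text description names the knockout for both. Ratios are plain quotients of FPKM for genes not at 0 in either library, with 0.5 or less taken as at most halved and 2 or more as at least doubled. Medians used log2 of FPKM + 0.1. Genes needed a mean over both libraries of 1 FPKM or more, a filter that favours neither direction. No test between genotypes was made. The members and lists were chosen with earlier results of these data known. All BK and KATP members, members of other classes that passed the filter, partner genes and markers could be named. *Kcnq1* and *Kcnn4* are exceptions, picked with their values known. *Adgre1* and *Myh4* of the marker lists and 7 RefSeq channel genes, *Kcnmb3* among them, were not analysed here. Single results for some genes are not reported here, though counts and medians include them.

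Gene positions and transcript lengths came from GENCODE M21 (GRCm38), in which all 91 members were found, and promoter windows from RefSeq (GRCm38.p6), in which 65 were. Of the 58 members of the filter, 20 share exonic bases with another annotated gene, and for 6 of them that gene has a row, none with a mean above 0.65 FPKM. Reads of such genes on opposite strands cannot be told apart without strand. *Kcnab2* overlaps *Gm16334* on the same strand, where strand would not separate them. Alternatives were the scaling, the pseudocount, the filter, the fold and transcript length. Counting was also run on simulated data, on which no value given here rests. Python 3.11.15, numpy 2.4.6, pandas 2.3.3 and matplotlib 3.10.9 were used.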

Additional observations from a re-analysis of the deposited data

How the results depend on the processing

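No paired analysis was possible because each genotype has 1 library. The cause of a change below was not tested where the setting itself does not give it. The count of halved members, 12 of 58, became 3 on the smooth muscle scale (1.02% of all genes), 5 with a pseudocount of 1 (2.03%), 7 of 36 with a mean of 3 FPKM or more (2.82%), 4 of 14 with 10 FPKM or more (2.54%), where fewer genes enter, and 23 at 1.5-fold (11%). The count of doubled members, 5, became 3 with either scaling to the FPKM sum (7.04% and 7.09% of all genes), 3 with a pseudocount of 1 (5.54%), 15 of 84 without a filter (11.8%), 3 with a mean of 3 FPKM or more (5.71%) and 0 with 10 FPKM or more (4.14%). The count was 7 with the median of all genes set to 0 (8.17%), with the upper quartile (8.35%) and on the smooth muscle scale (18.2%). With a trimmed mean it was 6 (8.1%), and at 1.5-fold it was 7 (15.1%). The median log2 ratio, -0.29, reversed to 0.21 on the smooth muscle scale and was -0.39 and -0.38 with the FPKM sum with and without small RNA genes, -0.28 with the median of all genes set to 0 or a trimmed mean, -0.26 with the upper quartile, -0.30 with a pseudocount of 0 or 0.01, -0.24 with 1, -0.06 without a filter, -0.31 and -0.89 with a mean of 3 and 10 FPKM or more, and -0.18 after centring on transcript length. The count of halved partner genes, 3 of 17, was 6 and 5 with the 2 FPKM sums (4.4% and 4.31% of all genes) and 1 on the smooth muscle scale (1.02%), with a pseudocount of 1 (2.03%) or after length centring (3.31%). Dividing by the FPKM sum moved the median of all genes from -0.02 to -0.12. Of the single members, 9 of the 12 halved ones (*Abcc9*, *Kcnh2*, *Kcnn3*, *Kcng4*, *Kcna2*, *Abcc8*, *Kcnmb2*, *Kcna3* and *Kcnn2*) were no longer past a halving on the smooth muscle scale, and *Kcnip2*, *Kcnip1* and *Kcng2* remained. With a pseudocount of 1 the last 7 of these 9 were no longer past a halving either. *Kcnma1*, *Kcne4*, *Kcng3*, *Kcnmb4*, *Kcnip3*, *Kcnh1* and *Kcnk6*, with ratios near the 2-fold line, were among those that crossed it under at least 1 setting.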

Other observations

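Other ion channel families, taken by symbol after the data were seen, gave the following values under the same filter, under which 51.5% of all genes had a ratio under 1, 3.38% were at most halved and 7.99% at least doubled. Of 16 voltage-gated calcium channel subunit genes, 10 had a ratio under 1 and 2 were at most halved, with a median log2 ratio of -0.45. Of 8 voltage-gated sodium channel genes, 5 had a ratio under 1, none was past a 2-fold ratio, and the median was -0.11. Of 10 TRP channel genes, 5 had a ratio under 1, 1 was at most halved and 2 were at least doubled, with a median of -0.08. The 3 HCN channel genes had ratios from 0.579 to 1.12. These families were not tested against the potassium channel genes, and the median over all genes was -0.02.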
